A study of Mus musculus with 22 samples.

Results

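The genes described here are the proteasome subunits and their assembly factors and regulators, taken as the genes whose mouse symbol begins with Psma, Psmb, Psmc, Psmd, Psme, Psmf or Psmg and goes on with a number. The Ensembl identifiers of the deposited tables gave 45 such genes of 10516. By role they were 7 alpha and 7 beta subunits of the 20S core, 2 inducible beta subunits of the immunoproteasome (Psmb9 and Psmb10), 6 ATPases and 10 non-ATPase subunits of the 19S regulatory particle, 3 chaperones of 19S assembly (Psmd5, Psmd9 and Psmd10), 4 chaperones of 20S assembly (Psmg1 to Psmg4), 3 genes of the PA28 activator (Psme1 to Psme3), the PA200 activator Psme4 and the inhibitor PI31, encoded by Psmf1. The last of the 45, Psmc3ip, fits the symbol rule but encodes a cofactor of meiotic recombination and is no proteasome gene. Psmb8 and Psmd8 were not analysed here.

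The 26S proteasome degrades proteins marked with ubiquitin. Its barrel-shaped 20S core is built from rings of alpha subunits, which gate the entrance, and rings of beta subunits, of which Psmb5, Psmb6 and Psmb7 carry the peptidase sites. The 19S particle caps the core, binds and removes ubiquitin chains and threads the substrate in through its ring of ATPases. Subunits occur in fixed numbers in the finished particle, the interferon-inducible Psmb9 and Psmb10 can take the places of Psmb6 and Psmb7, and Denr, the gene knocked down in this study, encodes a protein that helps ribosomes start again after they have translated an upstream open reading frame (uORF).

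NIH3T3 cells, a mouse embryo fibroblast line, were used for RPF-seq, which reads the stretches of mRNA covered by a ribosome (footprints), and for RNA-seq of the same 11 lysates. All cells, controls included, expressed a short hairpin RNA from a lentiviral vector with puromycin resistance, and all were given cycloheximide at 100 ug/ml for 2 min before lysis. Denr knockdown lysates carried Denr shRNA1 (n = 3) or Denr shRNA2 (n = 3), and control lysates carried a non-targeting scramble shRNA (n = 3) or a Gfp shRNA (n = 2). According to the methods each replicate was 1 dish of cells, while the labels speak of lysate pools, and whether the dishes of a group go back to separate transductions is not given, so the p-values measure the spread between these lysates. Denr RNA in the control lysates lay between 165 and 190 RPKM, and it was 77.5% ± 2.95 (SD, n = 3) below their mean with Denr shRNA1 and 90.1% ± 1.5 (SD, n = 3) below it with Denr shRNA2. Fibroblast markers were all in the tables, 8 of 8, with a summed RNA level of 7479 to 9314 RPKM in knockdown and 7179 to 8710 RPKM in control lysates, whereas 0 of 4 leukocyte markers were, and the only epithelial and endothelial markers listed, Cdh1 and Cdh5, stayed at or below 3.64 RPKM of RNA in the mean of either condition. The reads recovered from the RPKM of CDS and 5′ UTR summed to 10927591 to 21650161 per RPF-seq library and 8514260 to 20110164 per RNA-seq library. The RNA-seq library of Denr shRNA1 replicate 1 correlated least with the others of its assay across genes, with a mean Pearson r of 0.980 where the other 10 lay between 0.983 and 0.991, and among the RPF-seq libraries scramble shRNA replicate 3 had the lowest value, 0.988, against 0.991 to 0.993.

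The start codons of the members on which the comparisons turn are printed here with 12 bases before the ATG, which is in capitals, and 15 after it, from GENCODE vM21 on GRCm38. Psmb5 is shown because it was the member called for CDS footprints, and Psmd3, Psmd7, Psmb2 and Psmd13 because they were called for 5′ UTR footprints relative to the CDS.
Psmb5, chr14:54617974-54618003, minus strand: cccttgctaaacATGgcgctggctagcgtg
Psmd3, chr11:98682718-98682747, plus strand: accccgggcgccATGaagcaggagggctcg
Psmd7, chr8:107588335-107588364, minus strand: ggctgtgtcgcgATGccggagctggcggtg
Psmb2, chr4:126677743-126677772, plus strand: cttcccggcaccATGgagtacctcattggc
Psmd13, chr7:140882460-140882489, plus strand: ctctctgcaatcATGaaggatgtgccggcc
All of these CDS starts have a purine at position -3, counted back from the A of the ATG, and those of Psmb5 and Psmb2 also have a G at position 4, directly after it. The annotated 5′ UTR is 31 nt long in Psmb5, 176 nt in Psmd3, 112 nt in Psmd7, 125 nt in Psmb2 and 504 nt in Psmd13. As uORFs were counted reading frames of 9 nt or more that open with an ATG upstream of the CDS and reach a stop, on the transcript with the longest CDS. Psmb5, Psmd3, Psmd7 and Psmb2 had none. The deposited values of Psmd7 rest on a 5′ UTR of 130 nt, so its uORF count and its footprint ratio do not cover the same region.

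Psmd13, a non-ATPase subunit of the 19S lid, had 4 uORFs that end before the CDS, and these are their starts in order from the 5′ end.
Psmd13 uORF of 132 nt, chr7:140881998-140882027, plus strand: aaggctgtgtttATGcctggtgctggcagc
Psmd13 uORF of 81 nt, chr7:140882119-140882148, plus strand: gggtgataactaATGctctctgagcgattt
Psmd13 uORF of 135 nt, chr7:140882251-140882280, plus strand: ctctactctttaATGcctcaagggcagggc
Psmd13 uORF of 75 nt, chr7:140882355-140882384, plus strand: gacgctcccagcATGccccgcgcgcccgcg
Of these starts the last has a purine at position -3, and its stop codon lies 30 nt before the CDS. Over all members, 16 of 45 (35.6%) had such a uORF, against 50.4% of the 10242 genes with an annotated 5′ UTR, and the median 5′ UTR was 112 nt against 179 nt. Frames that start upstream in the frame of the CDS and end at its stop codon were counted too. Such an extension of the CDS was the only frame counted for Psmc5, with 1251 nt, and was among those of Psmc6 and Psmf1. The shares without such extensions were not computed. Each upstream ATG was counted, also where several share a stop codon. Counted in this way Psmb10 had the most, 8, and its inducible partner Psmb9 had 4. In both genes some of these share a stop codon, as the Psmb9 frames from positions 344, 374 and 377 do, which end 28 nt before the CDS. Near-cognate start codons were not analysed here.

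In control cells the proteasome genes were among the more highly expressed and more highly translated ones. RNA and footprints on the CDS are given as RPKM, that is per length of the region and per size of the library, which allows levels to be compared between genes, and translation efficiency (TE) is the log2 of footprints minus the log2 of RNA of the same lysate. The median member stood at the percentile 88.8 of all genes for RNA, 89.0 for footprints and 74.5 for TE, and 40 of 45 members had a TE above the median gene. The 14 constitutive 20S subunits had a median of 330.2 RPKM of RNA and 507 RPKM of footprints, and the 16 subunits of the 19S particle a median of 159 and 209 RPKM, where the median of all genes was 28.2 and 23.1 RPKM. The ratio of the median 20S subunit to the median 19S subunit in footprints was 2.47 ± 0.0980 (SD, n = 6) in knockdown and 2.46 ± 0.0830 (SD, n = 5) in control lysates.

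**Figure D1:**
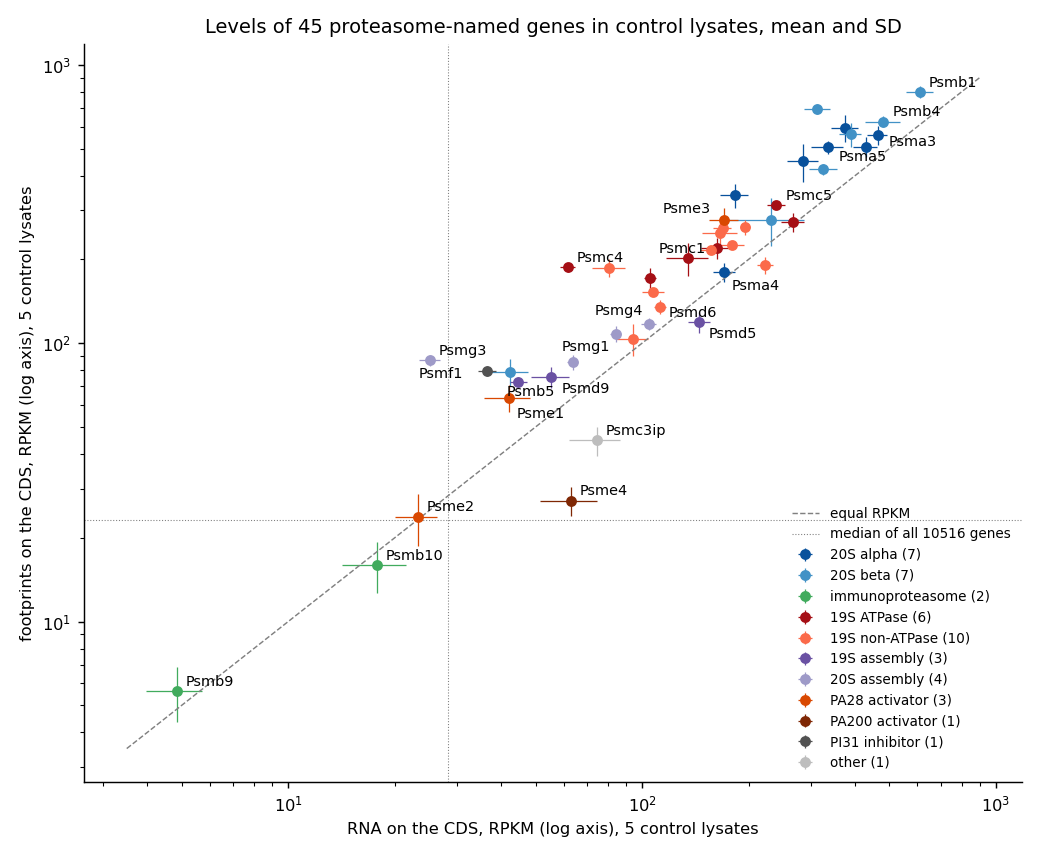
RNA (x axis) and footprints (y axis) on the CDS of the 45 members in RPKM on log axes, as mean and SD of the 5 control lysates, coloured by role with the number of members in brackets. The 20S subunits lie at the top right, Psmb5 lies far below them, Psmc4 and Psmg3 lie well above the dashed line of equal RPKM, and Psme4 and Psmc3ip lie below it.

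Among the alpha subunits, footprints ran from 180 ± 14.2 RPKM (SD, n = 5) for Psma4 to 594 ± 65.2 RPKM for Psma2, and Psma2 and Psma3, at 559 ± 43.7 RPKM, did not differ beyond their spread. Among the beta subunits Psmb1 was highest, with 610.2 ± 53.9 RPKM of RNA and 798 ± 39.1 RPKM of footprints. Psmb5, which holds the chymotrypsin-like site, was lowest, with 42.3 ± 5.42 RPKM of RNA and 78.8 ± 8.65 RPKM of footprints. Psmb6 and Psmb7, the other catalytic beta subunits, had 421 ± 19.5 and 563 ± 55.2 RPKM of footprints, and the next lowest constitutive 20S subunit was Psma4. Over the 13 others the SD of log2 RPKM was 0.58 in footprints, and with Psmb5 it was 0.89. Sequence copies limit this comparison: 2 other annotated genes share more than 90% identity with Psmb5 over at least 50% of its CDS, the nearest being the processed pseudogene Gm3375 with 98.9% identity. How reads with several matches were divided between Psmb5 and its copies was not tested. The same kind of copy was found for 16 of 45 members, among them Psma2, Psma3, Psma4, Psma5, Psmb1, Psmb3, Psmb6, Psmd2 and Psme2, so their levels carry this uncertainty too.

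Within the ring of ATPases, footprints were more alike than RNA. RNA of the 6 genes ranged from 61.6 ± 2.87 RPKM for Psmc4 to 266 ± 19.5 RPKM for Psmc3, a ratio of 4.32, while footprints ranged from 171 ± 15.0 RPKM for Psmc2 to 314 ± 11.2 RPKM for Psmc5, a ratio of 1.83. In each of the 11 lysates the SD of log2 RPKM over the 6 ATPases was smaller in footprints, 0.26 to 0.40, than in RNA, 0.72 to 0.90, whereas over all genes it was larger in footprints, 2.41 to 2.48, than in RNA, 2.09 to 2.19. Without Psmc4, the gene with the lowest RNA and a log2 TE of 1.60 ± 0.06 (SD, n = 5), left out after its values were seen, the ranges were 0.25 to 0.43 and 0.46 to 0.76. Psmc4 stood at the percentile 98.2 of TE, and its start codon follows.
Psmc4, chr7:28050001-28050030, minus strand: ggcttggtcactATGgaggagataggcatt
The 10 non-ATPase subunits of the 19S particle did not show the same narrowing, with SDs of 0.42 to 0.49 in footprints and 0.43 to 0.57 in RNA. Psmd12 had the most footprints among them, 261 ± 16.9 RPKM, close to Psmd7 with 260 ± 16.4 RPKM, and Psmd1, a large scaffold subunit, the fewest, 104 ± 13.4 RPKM. Neither did the alpha subunits, with 0.49 to 0.69 in footprints and 0.49 to 0.61 in RNA.

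The 4 chaperones that pair up to assemble the alpha ring also had more even footprints than RNA, but this rested on 1 gene, Psmg3. Psmg3 had 25.1 ± 1.67 RPKM of RNA (SD, n = 5) and its partner Psmg4 had 104 ± 5.10 RPKM, a ratio of 0.241 ± 0.0157, while in footprints they had 86.9 ± 4.03 and 117 ± 5.67 RPKM, a ratio of 0.744 ± 0.0689. Psmg1 and Psmg2, the other pair, had a ratio of 0.758 ± 0.0209 in RNA and 0.795 ± 0.0755 in footprints. Psmg3 had the highest log2 TE of all members, 1.79 ± 0.12, at the percentile 98.8, and is shown for that reason.
Psmg3, chr5:139826326-139826355, minus strand: aagaacgggaccATGgaagacaaaccactg
Over the 4 genes the SD of log2 RPKM was 0.80 to 0.96 in RNA and 0.12 to 0.36 in footprints across the lysates. With Psmg3 left out, after its values were seen, the ranges overlapped, at 0.25 to 0.45 and 0.12 to 0.37. The protein-coding gene Gm26938 has 100% identity with Psmg3 over 58.5% of the Psmg3 CDS, so the Psmg3 values are uncertain.

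The activators, the inhibitor and the inducible subunits covered a wide range of levels. Psme1 and Psme2, whose products form the PA28 activator of the cytoplasm, had 63.6 ± 7.0 and 23.8 ± 5.03 RPKM of footprints (SD, n = 5), and Psme3, the nuclear PA28 subunit, had 277 ± 29.8 RPKM. The protein-coding gene Psme2b is 99.3% identical to Psme2 over its CDS. The PA200 gene Psme4 had the lowest log2 TE of the members, -1.20 ± 0.31, and the PI31 gene Psmf1 had one of 1.12 ± 0.10. The inducible subunits were the least expressed members, with 17.8 ± 3.67 RPKM of RNA and 16.0 ± 3.30 RPKM of footprints for Psmb10 and 4.84 ± 0.880 and 5.63 ± 1.26 RPKM for Psmb9. Psmb10 made up 2.81% ± 0.818 of the footprint RPKM of Psmb10 and Psmb7 together, and Psmb9 made up 1.33% ± 0.329 of that of Psmb9 and Psmb6. Among the 19S chaperones, Psmd5 had 119 ± 10.3 RPKM of footprints, and Psmd9 and Psmd10 had 75.6 ± 6.38 and 72.4 ± 2.98 RPKM and did not differ beyond their spread. Their RNA was 145 RPKM for Psmd5, 55.3 RPKM for Psmd9 and 44.7 RPKM for Psmd10. These 3 genes too were more even in footprints, with an SD of log2 RPKM over the control means of 0.40 against 0.91 in RNA. This was not computed for each lysate.

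Knockdown of Denr left nearly all of these levels close to those of the control cells. The question behind the comparison was which CDSs depend on Denr for their translation. The 6 knockdown lysates were compared with the 5 control lysates on log2(RPKM + 0.1) with limma over all 10516 genes, and genes were called at a Benjamini-Hochberg FDR of 0.1. For TE, 0 of 45 members were called by limma, against 0.475% of all genes lower and 0.0% higher. The groups overlapped for every member in TE, where 1.32% of all genes lay wholly below and 0.0951% wholly above the controls. In such lysates of many cells, less of a transcript in each cell and fewer cells that make it cannot be told apart. At an unadjusted p under 0.05 there were 2 members (4.44%, against 6.66% of all genes), Psmb5 below and Psme2 above the controls, and voom on the recovered reads also called 0. The median change in TE was 0.02 over the members and -0.01 over all genes, and 38 of 45 members changed by less than 0.1 on the log2 scale. The 95% confidence interval of the TE change lay within 0.5 either way for 43 of 45 members and within 0.3 for 36, and changes up to these bounds cannot be told from none.

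For RNA abundance 0 members were called by limma, where 0.865% of all genes were lower and 2.68% higher, 3.55% in all, and voom called 0 as well. At an unadjusted p under 0.05, 3 members had less RNA in knockdown and 0 had more (6.67% together), where 517 of all genes had less and 1180 more (16.1%). Psma3, an alpha subunit, had the largest difference, -0.19 ± 0.07 (SE, adjusted p = 0.195), with 407 ± 26.4 RPKM (SD, n = 6) in knockdown and 463 ± 30.2 RPKM (SD, n = 5) in control lysates. Psmf1 had 32.3 ± 1.95 and 36.5 ± 2.09 RPKM. Psmd12, a subunit of the 19S lid, was the only member whose lysates did not overlap between the conditions for RNA, with 171 to 185 RPKM in knockdown and 187 to 204 RPKM in control lysates, and its adjusted p was 0.242. Among all genes, 1.04% lay in this way below the controls and 2.63% above them. The median RNA change was -0.03 over the members and 0.03 over all genes. By role, all 7 alpha subunits and all 6 ATPases had values below 0, from -0.19 to -0.01 and from -0.16 to -0.01, while 5 of 7 beta subunits had values above 0, and none of these was called. Over the 45 members 29 were below 0 and 16 above, where 42.9% of all genes were below 0. Shared signs also occurred within a condition. From Denr shRNA1 to Denr shRNA2 the RNA of 40 members changed below 0 and of 5 above. From scramble to Gfp shRNA these counts were 26 and 19.

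**Figure D2:**
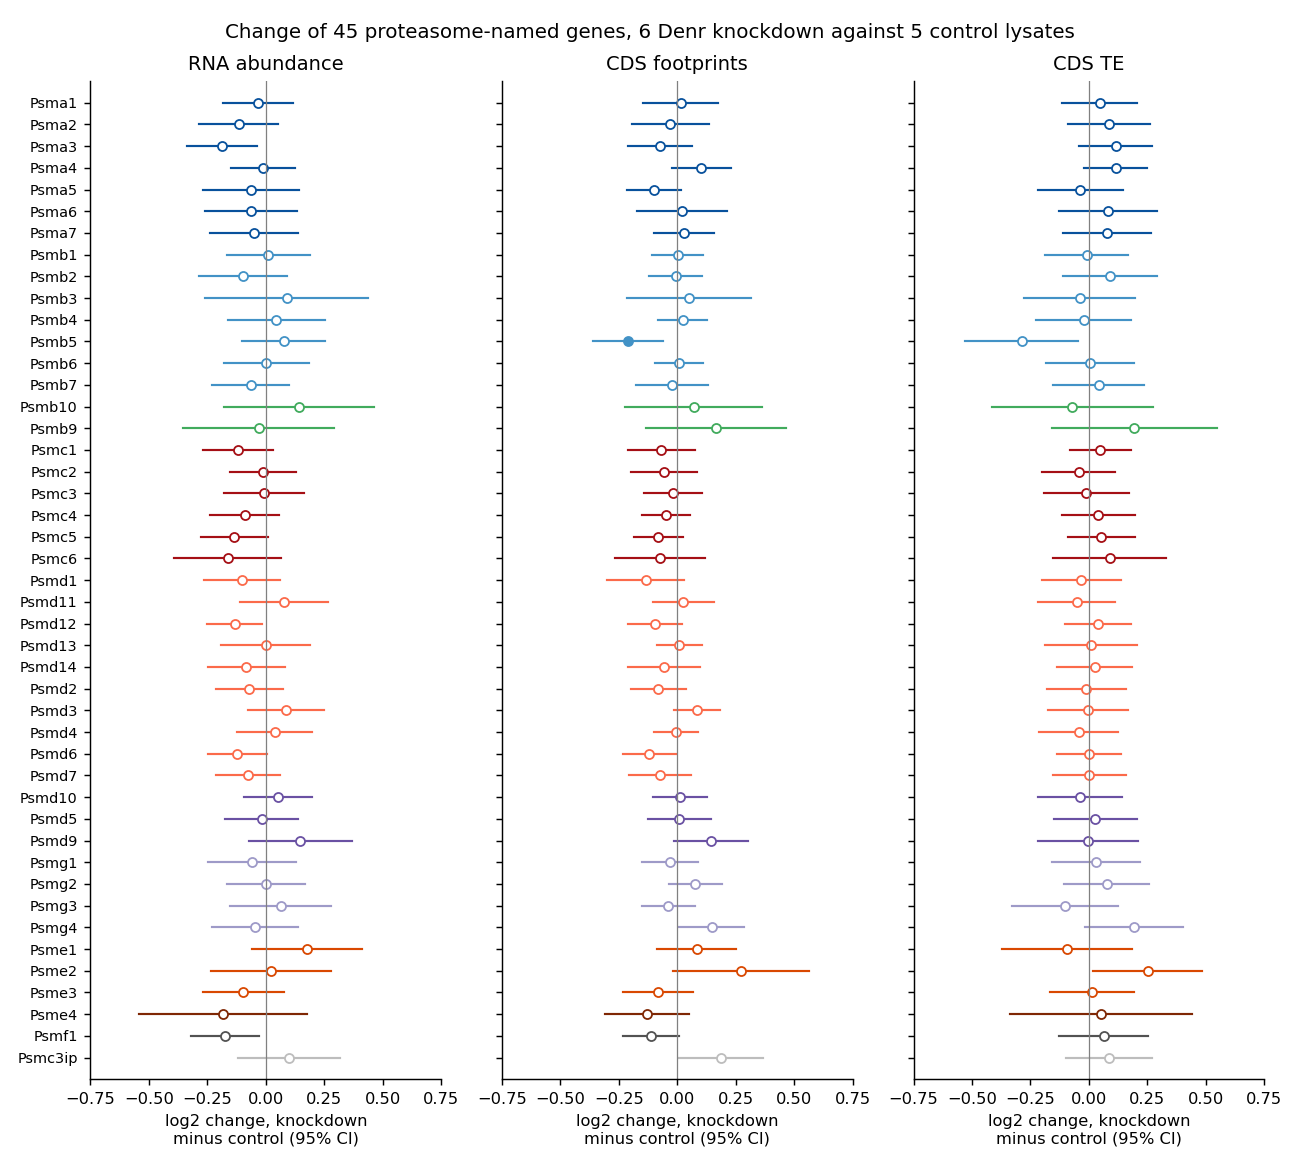
Log2 change of RNA abundance, CDS footprints and CDS TE (knockdown minus control) for each of the 45 members, coloured by role, with the 95% confidence interval. A filled point marks an FDR under 0.1, which Psmb5 alone reached, in CDS footprints with a change of -0.21.

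For CDS footprints, 1 of 45 members was called, Psmb5, which fell, where 4.55% of all genes fell and 5.47% rose, 10.0% in all. For footprints the lysates of the conditions overlapped in all 45 members, while 1.97% of all genes lay wholly below and 2.48% wholly above the controls. Psmb5 (ENSMUSG00000022193, chr14:54614119-54618022) had 67.9, 62.7 and 69.5 RPKM of footprints with Denr shRNA1 and 69.6, 67.0 and 69.7 RPKM with Denr shRNA2. In the controls it had 79.8 and 65.6 RPKM with Gfp shRNA and 76.7, 82.8 and 89.0 RPKM with scramble shRNA. The knockdown lysates thus lay close together and below 4 of the 5 control lysates, and Gfp shRNA replicate 2 fell inside their range. The log2 change was -0.21 ± 0.07 (SE), with an adjusted p of 0.098. Psmb5 RNA was 44.4 ± 2.16 RPKM (SD, n = 6) in knockdown and 42.3 ± 5.42 RPKM (SD, n = 5) in control lysates, a log2 change of 0.08 ± 0.08 (SE, adjusted p = 0.697). The TE of Psmb5 had the largest decrease among the members, -0.29 ± 0.11 (SE), with an adjusted p of 0.625. Among the control lysates its log2 TE ran from 0.61 to 1.30, in scramble shRNA replicates 1 and 3, and the knockdown values of 0.46 to 0.73 overlapped that range.

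**Figure D3:**
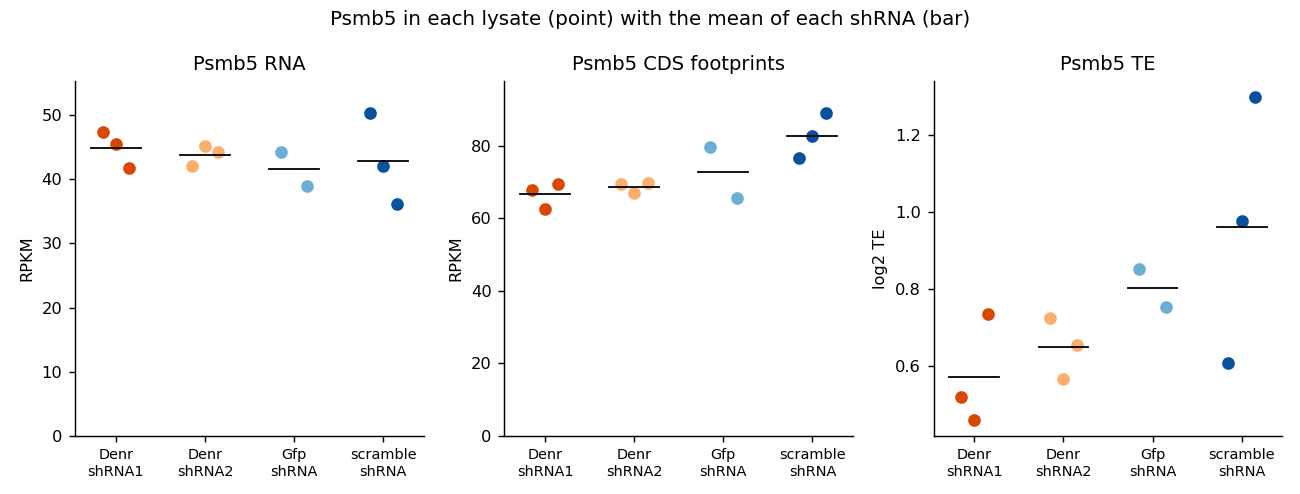
Psmb5 in each of the 11 lysates: RNA in RPKM, CDS footprints in RPKM and log2 TE, with a bar for the mean of each shRNA. The footprint values of the 6 knockdown lysates lie between 62.7 and 69.7 RPKM, and the control lysates between 65.6 and 89.0 RPKM.

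The call of Psmb5 was close to the threshold. Leaving out any 1 of 10 lysates ended it, with adjusted p between 0.119 and 0.203, and without Gfp shRNA replicate 2 it had an adjusted p of 0.015. Leaving out that lysate also brought in Psmd12, Psmd6 and Psmd1, so that 4 members were called, and 1946 of all 10516 genes were called in that fit, against 1053 with all lysates. With each Denr shRNA alone against all controls Psmb5 changed by -0.23 and -0.19 and was not called (adjusted p = 0.205 and 0.261). The processed copies named above apply to the change as well.

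The remaining 44 members had footprint changes between -0.14 for Psmd1 and 0.27 for Psme2, none of them called in this fit, with a median over all 45 of -0.01 and over all genes of 0.01. With the replicate number as a block, Psmc3ip, Psmd9 and Psme2 were called as well, as given at the end with the count over all genes. For 44 of 45 members the 95% confidence interval lay within 0.5 either way, and for 36 within 0.3. Psme2 had 28.3 ± 3.41 RPKM of footprints (SD, n = 6) in knockdown and 23.8 ± 5.03 RPKM (SD, n = 5) in control lysates (change 0.27 ± 0.14 SE, adjusted p = 0.237). Its RNA was 23.7 ± 4.14 and 23.2 ± 3.13 RPKM, and its TE change of 0.25 ± 0.11 (SE) had an adjusted p of 0.696. Psmc3ip, the member that is no proteasome gene, had 50.8 ± 3.95 and 44.8 ± 5.34 RPKM (change 0.19 ± 0.08 SE, adjusted p = 0.195). Psmg3, with the second largest TE decrease, changed by -0.10 ± 0.10 (SE, adjusted p = 0.995) in TE, and Psmb9 had one of the 2 largest increases, 0.19 ± 0.16 (SE, adjusted p = 0.973). A p that misses the threshold does not show that these values did not differ.

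In RNA the 2 largest increases were those of Psme1 and Psmd9, and Psme4 had the second largest decrease. Psme1 had 47.6 ± 6.70 RPKM (SD, n = 6) in knockdown and 42.1 ± 6.26 RPKM (SD, n = 5) in control lysates, a change of 0.18 ± 0.11 (SE, adjusted p = 0.450). Psmd9 changed by 0.15 ± 0.10 (SE, adjusted p = 0.510) and Psme4 by -0.18 ± 0.17 (SE, adjusted p = 0.638). The values of Psme1 and Psme4 in Denr shRNA1 replicate 1, the RNA-seq library least like the others, stood far from the other knockdown lysates, with 61.1 and 33.2 RPKM. The TE of both genes rests partly on that library, at 0.18 for Psme1 and -0.50 for Psme4 there, where the other knockdown lysates had 0.39 to 0.75 and -1.42 to -1.10.

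For ribosomes on the 5′ UTR, measured against those on the CDS of the same gene, the fitted change after Denr knockdown was above 0 in every covered member, as in most other genes, and it passed the test in 4. The 5′ UTR could be followed in 21 of 45 members, those where 9 or more of the 11 RPF-seq libraries held 20 or more footprint reads on it, a number of libraries that neither condition reaches alone. In the 3 members Psmb1, Psmb5 and Psmb6 the 5′ UTR was listed at 0 in every library of both assays. In control lysates the covered members had a low density of footprints on the 5′ UTR relative to the CDS, with a median log2 ratio of the RPKM of -2.22 against -0.89 over the 5176 covered genes, from -5.28 for Psma3 to 0.02 for Psma4. The filter counts reads, so genes with many footprints on the CDS, as these members have, can pass it at lower ratios than other genes. How far this sets the medians apart was not tested. Of the 21, 6 (28.6%) had an AUG uORF, against 64.2% of all covered genes with an annotated 5′ UTR. Both shares include extensions of the CDS, such as the one of Psmc5.

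The ratio changed by 0.46 in the median over the 21 members and by 0.33 over all covered genes. All 21 had values above 0, from 0.11 for Psma4 to 0.77 for Psmd7, and among all covered genes 6.45% were below 0. Psma4 and Psme1 turned below 0, to -0.0153 and -0.10, with scramble shRNA as the only control, and to -0.0023 and -0.0559 without Gfp shRNA replicate 1. At an FDR of 0.1, 4 of the 21 rose and 0 fell, where 17.9% of all covered genes rose and 0.0386% fell, 18.0% in all. In RNA the same ratio had changes above 0 in 10 members and below 0 in 11, with a median of -0.00265 and a range from -0.33 for Psme1 to 0.21 for Psma3, and its lysates overlapped between the conditions for all 21.

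**Figure D4:**
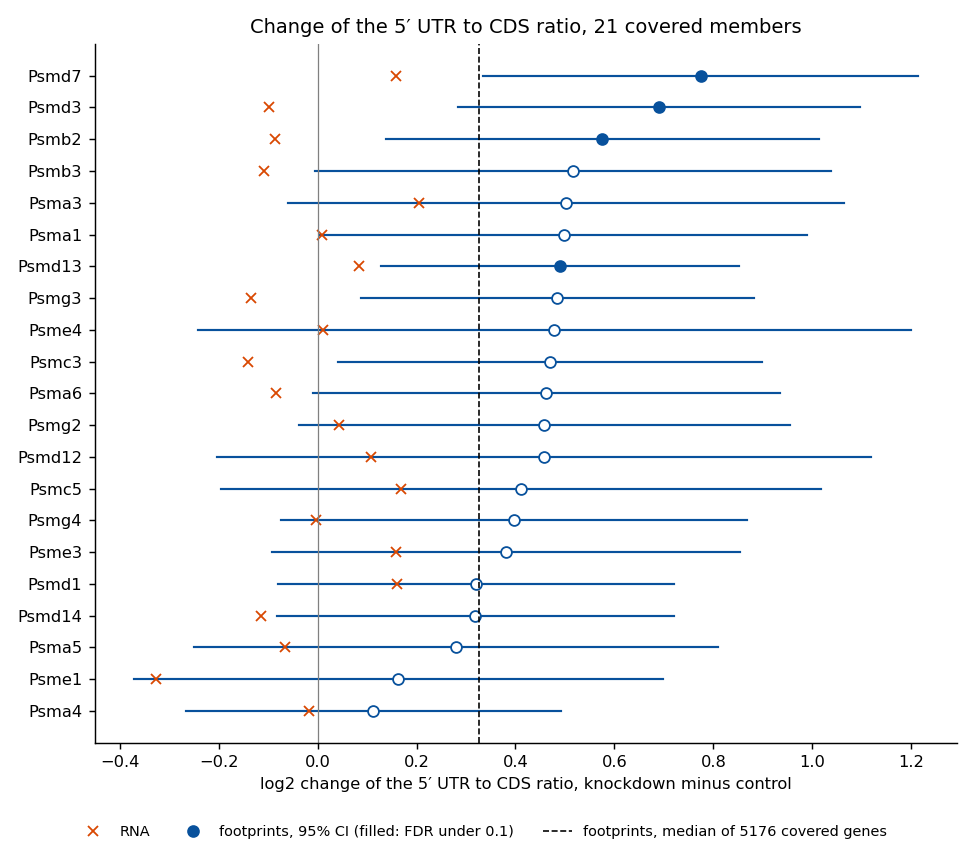
Knockdown minus control for the log2 ratio of 5′ UTR to CDS in footprints, with 95% confidence interval, and in RNA, for the 21 covered members, with the median of the 5176 covered genes as a dashed line. All footprint values lie above 0, the filled points of Psmd7, Psmd3, Psmb2 and Psmd13 passed the FDR of 0.1, and the RNA values lie on both sides of 0.

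The called members were Psmd3, Psmd7 and Psmd13, all subunits of the 19S lid, and the beta subunit Psmb2, whose start codons are printed above. For Psmd3 the log2 ratio was -1.09, -0.81 and -1.0 with Denr shRNA1 and -0.92, -0.66 and -1.23 with Denr shRNA2, against -1.66 and -1.17 with Gfp shRNA and -1.46, -1.61 and -2.31 with scramble shRNA. Apart from Denr shRNA2 replicate 3, which lay just below Gfp shRNA replicate 2, the conditions were separate. The change was 0.69 ± 0.19 (SE, adjusted p = 0.056). These ratios rested on 101 to 239 footprint reads on the 5′ UTR per library.

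For Psmd7 the log2 ratio was -2.34, -2.20 and -2.25 with Denr shRNA1, -2.53, -1.91 and -2.36 with Denr shRNA2, -3.08 and -2.32 with Gfp shRNA and -3.25, -2.96 and -3.59 with scramble shRNA. Only Gfp shRNA replicate 2 among the controls fell in the range of the knockdown lysates. The change was 0.77 ± 0.21 (SE, adjusted p = 0.0533), on 41 to 101 reads per library. Psmb2 had -1.75, -1.53 and -1.58 with Denr shRNA1, -2.03, -1.72 and -1.93 with Denr shRNA2, -2.40 and -2.03 with Gfp shRNA and -1.76, -2.44 and -3.04 with scramble shRNA. Scramble shRNA replicate 1 lay within the knockdown range, and the change was 0.58 ± 0.21 (SE, adjusted p = 0.0897).

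Psmd13 was the only 1 of the 21 covered members whose conditions did not overlap, a share close to the 4.83% of all covered genes that lay in this way above the controls. Its log2 ratio was -3.49, -3.49 and -3.54 with Denr shRNA1 and -3.71, -3.66 and -3.73 with Denr shRNA2, against -4.43 and -4.18 with Gfp shRNA and -3.76, -3.97 and -4.13 with scramble shRNA. The change was 0.49 ± 0.17 (SE, adjusted p = 0.0861), and its CDS footprints were 227 ± 7.42 RPKM (SD, n = 6) in knockdown and 225 ± 3.22 RPKM (SD, n = 5) in control lysates. Of the members not called, Psma4 and Psme1 had the smallest changes, 0.11 ± 0.18 and 0.16 ± 0.25 (SE, adjusted p = 0.635 and 0.627). The TE of the CDS was called for none of these members, with changes of -0.00303 ± 0.08 (SE) for Psmd3, 0.00264 ± 0.07 for Psmd7, 0.01 ± 0.09 for Psmd13 and 0.09 ± 0.09 for Psmb2.

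The count of 4 rested on single lysates. It was 2 without Denr shRNA1 replicate 1, Denr shRNA1 replicate 3 or scramble shRNA replicate 3, each time Psmd3 and Psmd7, it was 0 without Denr shRNA1 replicate 2, Denr shRNA2 replicate 2 or Gfp shRNA replicate 1, and it was 11 without Gfp shRNA replicate 2, where 1774 of the 5176 covered genes were called. Measured as 5′ UTR footprints over 5′ UTR RNA, 0 members were called by limma, and with coverage set by 1 RPKM on the 5′ UTR in as many libraries 0 were called as well. That coverage rule also changes which genes are tested. Apart from the fit without Gfp shRNA replicate 2, the counts over all genes in these alternative fits are not reported here. Whether the counts of members moved apart from those of all genes can thus not be read from them. At an unadjusted p under 0.05, 7 of the 21 members (33.3%) were above the controls, and 33.3% of all covered genes passed this threshold. Voom was not run for this ratio. With the replicate number as a block more members and more genes were called, as given at the end.

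Between the control shRNAs, members were not called more often than genes as a whole. Between Gfp and scramble shRNA, 1 of 45 members was called for footprints, Psmb10, which was higher with Gfp shRNA, where 5.38% of all genes were higher and 3.1% lower, 8.48% in all. Psmb10 had 19.6 and 19.5 RPKM with Gfp shRNA and 13.4, 14.6 and 12.8 RPKM with scramble shRNA. The change was 0.52 ± 0.13 (SE, adjusted p = 0.0427), on at least 124 footprint reads per library. Psmb10 was not called without Gfp shRNA replicate 1 or 2, which leaves 1 Gfp lysate, assumed to vary like the others (adjusted p = 0.154 and 0.204), and without scramble shRNA replicate 1, 2 members were called, Psmb10 and Psme2. The count over all genes in the fit without scramble shRNA replicate 1 is not reported here, so the 2 calls cannot be set against it. In knockdown cells Psmb10 had 17.6, 22.1 and 15.7 RPKM with Denr shRNA1 and 13.6, 15.7 and 15.4 RPKM with Denr shRNA2.

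**Figure D5:**
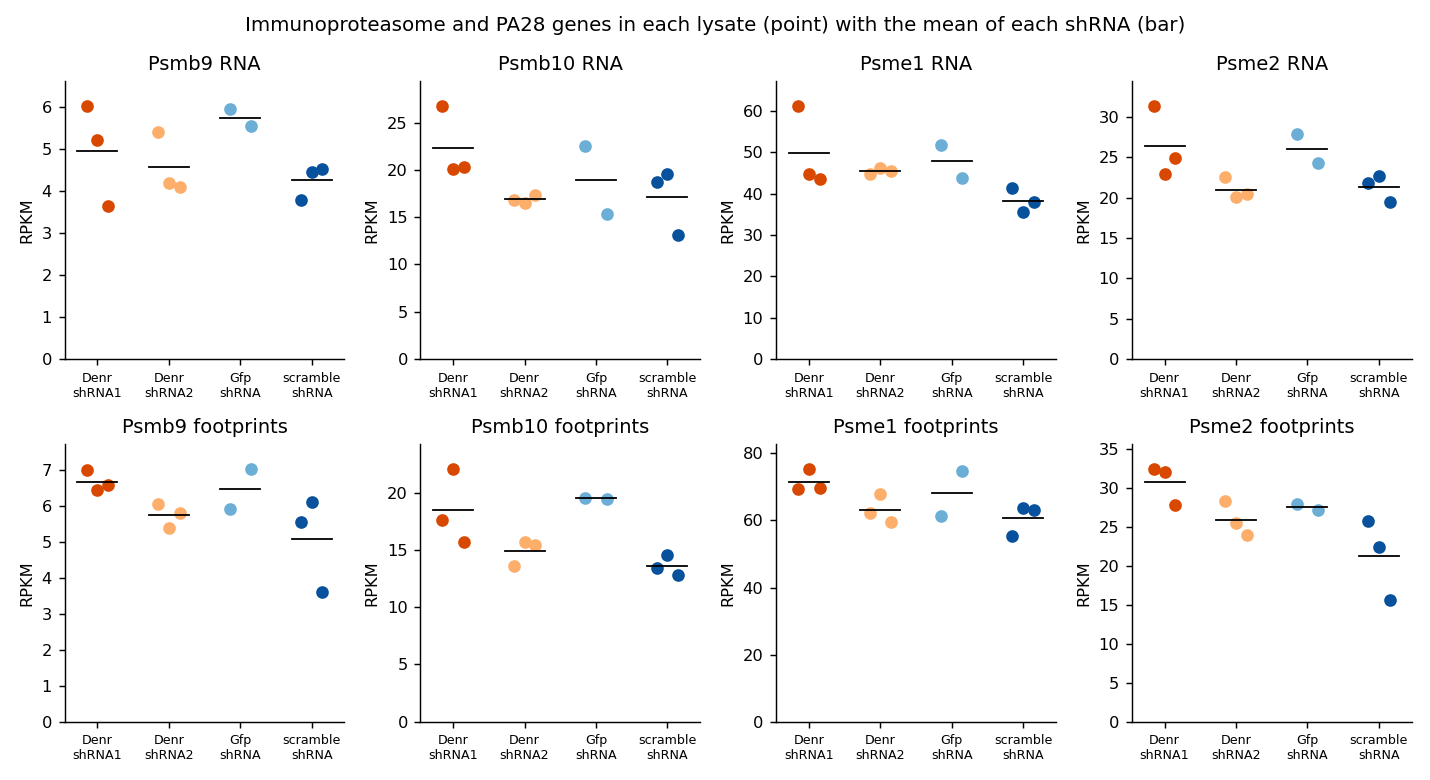
RNA and footprints in RPKM of Psmb9, Psmb10, Psme1 and Psme2 in each lysate, with a bar for the mean of each shRNA. Psmb10 footprints are 19.6 and 19.5 RPKM in the 2 Gfp shRNA lysates and 12.8 to 14.6 RPKM in the 3 scramble shRNA lysates.

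The other interferon-inducible members, Psmb9, Psme1 and Psme2, had footprint changes of 0.37 ± 0.18, 0.16 ± 0.10 and 0.40 ± 0.16 (SE) from scramble to Gfp shRNA, with adjusted p of 0.247, 0.348 and 0.176. For RNA and TE, 0 members were called by limma between the controls, where 0.704% and 0.0% of all genes were (0.171% lower and 0.533% higher in RNA), with 2 and 0 members at an unadjusted p under 0.05, which 9.69% and 2.22% of all genes passed. In footprints 4 members were lower and 2 higher at this threshold (13.3%, against 22.5% of all genes). Between the Denr shRNAs, 0 members were called by limma for TE, footprints or RNA, where 0.0%, 9.69% and 2.06% of all genes were. Of all genes 4.01% were lower and 5.68% higher with Denr shRNA2 in footprints, and 0.932% lower and 1.13% higher in RNA. At an unadjusted p under 0.05 there were 0, 1 and 2 members, where 3.73%, 19.7% and 13.6% of all genes passed. These were the footprints of Psmb10, lower with Denr shRNA2 by a log2 value of -0.30 ± 0.11 (SE, adjusted p = 0.159), and the RNA of Psme2 and Psmg2, at -0.32 ± 0.12 and -0.21 ± 0.09 (SE, adjusted p = 0.299 and 0.349). Without Denr shRNA1 replicate 3, 1 member was called for footprints, Psmb10, and the count over all genes in that fit is not reported here. Voom was not run for the contrasts within a condition, and calls between the Denr shRNAs with the replicate number as a block are given at the end.

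Genes that work with the proteasome but carry other symbols were read from lists. Of 10 further proteasome parts, 9 were in the tables, and 0 were called by limma for RNA, footprints or TE. Pomp, the chaperone that completes the 20S core, had 614 ± 58.8 RPKM of footprints (SD, n = 6) in knockdown and 653 ± 56.8 RPKM (SD, n = 5) in control lysates, and the ubiquitin receptor Adrm1 had 14.8 ± 0.958 and 15.7 ± 1.25 RPKM. For the 5′ UTR to CDS ratio all 8 covered genes of this list had changes above 0, and 4 of them were called, where 17.9% of all covered genes were called higher. Pomp rose by 0.67 ± 0.24 (SE, adjusted p = 0.0883), and Txnl1, Sem1 and Ecpas by 0.56, 0.49 and 0.52. Of the 9 genes around Nfe2l1, the transcription factor that raises proteasome genes when the proteasome is inhibited, 0 were called for any measure. Nfe2l1 itself had 78.6 ± 5.71 RPKM of RNA (SD, n = 6) in knockdown and 65.8 ± 5.14 RPKM (SD, n = 5) in control lysates (0.26 ± 0.07 SE, adjusted p = 0.101), and its protease Ddi2 37.5 ± 1.08 and 36.9 ± 0.739 RPKM.

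Among genes for ubiquitin, its activating enzymes and shuttle factors, footprints fell for Uba1, the main ubiquitin-activating enzyme, by 0.18 ± 0.06 (SE, adjusted p = 0.0955), from 72.8 ± 5.26 RPKM (SD, n = 5) in control to 64.3 ± 2.59 RPKM (SD, n = 6) in knockdown lysates. For the 5′ UTR to CDS ratio 3 of 8 covered genes were called, where 17.9% of all covered genes were called higher: Ubqln1, Rps27a and Ubqln2 rose by 0.45, 0.62 and 0.53. Of the antigen presentation genes, Tapbp, which helps load peptides on class I molecules, rose in RNA by 0.56 ± 0.11 (SE, adjusted p = 0.0217) and in footprints by 0.50 ± 0.11 (SE, adjusted p = 0.0220).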

How the data were processed

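RPF-seq and RNA-seq libraries of 11 lysates of NIH3T3 cells were compared. Per the submitters' processing notes the authors used CASAVA 1.82, cutadapt, Bowtie2 2.2.1, TopHat2 2.0.11, Cufflinks 2.2.1 and edgeR with GRCm38.p2, and they deposited RPKM values per gene for CDS and 5′ UTR. With the library size and the shortest region length that make a gene's values whole, to within 0.001 read, whole reads were recovered for 231352 of 231352 CDS and 228800 of 228800 5′ UTR values, and library depths are sums of these reads. RPKM were tested as log2(RPKM + 0.1) with limma 3.58.1 (R 4.3.3, trended empirical Bayes) over all genes, with Benjamini-Hochberg adjustment at an FDR of 0.1, and all tests were two-sided. TE was tested on the difference of footprints and RNA within a lysate, and relative 5′ UTR translation on the log2 ratio of 5′ UTR to CDS footprints where at least 9 of 11 libraries had 20 reads on the 5′ UTR. A fold change on this scale understates the change of low genes. Voom was run on the recovered reads as an alternative. The count of reads limits precision, and Psmb9, the lowest member, had as few as 36 footprint reads on its CDS.

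The members and gene lists were chosen with earlier results of these data known. Named members were those called in any measure, the 2 largest decreases and increases per measure, the catalytic, inducible, activator, inhibitor and assembly genes, the highest and lowest footprints of the 20S and 19S roles, and Psmc3ip. Of the lists, called genes were named with Pomp, Adrm1, Nfe2l1 and Ddi2. Some called genes of the lists are not reported here. Other members were named where their values lie apart and were then chosen after these were seen (Psmc4, Psmd12, Psmf1 in RNA and Psmd6). Other pseudocounts, filters, centring, controls, transcripts, a block by replicate number and leaving out each lysate were tried. Annotation and sequences came from GENCODE vM21 on GRCm38. The deposited CDS length equalled that of the annotation for 36 of 45 members and was 0.98 to 1.12 times it for all. Deposited and annotated 5′ UTR lengths differed for some members, among them Psmd7, Psme1, Psmc3 and Psmf1. The scripts were tested on simulated data. Tables were handled in pandas 2.3.3 under Python 3.11.15, and figures were drawn with matplotlib 3.10.9.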

Additional observations from a re-analysis of the deposited data

Results flagged for a closer look

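In 36 groups of lysates tested for a value far from its neighbours, 2 held one, where chance gives about 1 in 20. Both were in the RNA of Denr shRNA1 replicate 1, the RNA-seq library that correlated least with the others. Psme4, the PA200 activator, had 33.2 RPKM there and 56.6 to 66.6 RPKM in the other 5 knockdown lysates. Psme1, a PA28 subunit, had 61.1 RPKM there and 43.5 to 46.1 RPKM in the others.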

How the results depend on the processing

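Under every alternative run, 0 members were called for TE and for RNA between knockdown and control. For CDS footprints the 1 call became 0 with an empirical Bayes fit without trend, 0 with Denr shRNA1 alone, 0 with Denr shRNA2 alone and 7 with scramble shRNA as the only control, and leaving out 1 lysate gave 0 to 4. For relative 5′ UTR translation the 4 calls became 0 with coverage set by 1 RPKM on the 5′ UTR, 0 when 5′ UTR footprints were divided by 5′ UTR RNA, 8 without division, 0 with Denr shRNA1 alone, 0 with Denr shRNA2 alone and 2 with scramble shRNA as the only control, and leaving out 1 lysate gave 0 to 11. Between the Denr shRNAs leaving out 1 lysate gave 0 to 1 calls for footprints, and between the controls 0 to 2. With a single Denr shRNA or a single control fewer lysates entered the fit, and for the other settings the cause was not tested. The counts over all genes under these settings are not reported here, except for the fits without Gfp shRNA replicate 2 given above. A change in the count of members is therefore no result about the members.

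The change of the relative 5′ UTR translation turned to -0.0153 for Psma4 and -0.10 for Psme1 with scramble shRNA as the only control, and over the leave-one-out fits it ran from -0.0023 to 0.23 for Psma4 and from -0.0559 to 0.30 for Psme1, the lowest without Gfp shRNA replicate 1. Of 395 values of named changes under alternatives, 333 kept their direction and side of the threshold, 52 no longer passed it, 6 passed it newly and 4 turned.

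With the replicate number as a block, 4 members were called for CDS footprints (Psmb5, Psmc3ip, Psmd9 and Psme2) with 1940 of all 10516 genes, 15 for relative 5′ UTR translation with 2419 of 5176, and between the Denr shRNAs 2 for footprints and 1 for RNA. For the calls between the Denr shRNAs the counts over all genes are not reported here, so these cannot be set against them. The deviations of same-numbered lysates from their group means correlated with a mean r of 0.226 for TE, 0.180 for footprints and 0.326 for RNA over 15 pairs, and 10, 13 and 10 pairs were above 0.1. Not every pair was, and the fits reported above leave the numbers out. Whether lysates of the same number share a batch is not given, and these correlations do not settle it.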
